A study of Mus musculus with 2 samples.

Results

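The genes described here are 6 ligands of the epidermal growth factor (EGF) family, Areg (amphiregulin), Ereg (epiregulin), Hbegf (heparin-binding EGF-like growth factor), Epgn (epigen), Tgfa (transforming growth factor alpha) and Nrg1 (neuregulin 1), and the 4 receptors of the ERBB family, Egfr, Erbb2, Erbb3 and Erbb4. They were chosen by symbol and not by a cutoff on measured values, though earlier results of these data were known. All 10 were found once each among the 31053 genes of both matrices. The study asked how alveolar cells of the mouse lung fare after injury when Pclaf, which binds the DNA clamp PCNA, is missing. Pclaf WT mice and Pclaf KO mice, whose germline deletion removes the gene from every cell type, both received bleomycin, a drug that damages DNA and injures the lung. The labels give 1.35 U/kg and collection after 1 week, the methods state another dose, and there was no uninjured group. The mice were 8 to 10 weeks old and, by the study's methods, male. Each genotype is 1 single-cell library (10x Genomics 3′ chemistry, which counts each captured RNA molecule by its unique molecular identifier, UMI), and how many animals went into a library is not stated in the sources used here.

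The libraries did not match their label of sorted lung epithelium equally well. The study's methods describe a sort for cells without CD31 and CD45 and with EpCAM, yet in the WT library Ptprc, which encodes CD45, had a UMI in 39.6% of kept cells, Pecam1, which encodes CD31, in 41.5% and Epcam in 5.83%. In the KO library the same shares were 3.30%, 4.94% and 46.8%. Of 30187 kept WT cells, 6.49% fell into epithelial clusters, and of 15637 kept KO cells, 72.1%. The median depth of kept cells was 2127 UMIs in WT and 5957 in KO, and 163 cell barcodes had the same sequence in both libraries. Pclaf itself was at 39.3 CPM in WT (UMIs per 1000000 UMIs of the cells in question) and 5.19 in KO, where 529 UMIs remained, and in cycling epithelial-like cells it was at 169 and 96.4 CPM. The library labelled KO therefore still held Pclaf RNA. Xist, which female cells transcribe, was at 254 and 498 CPM. Since every class of cells is compared inside these libraries, genotype, sort, depth and free RNA cannot be told apart in any difference between them, and with 1 library per genotype neither could be left out.

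Clusters were given a name ending in "-like" from lists of marker genes, with the 10 members kept out of the genes that formed the clusters. In the end 57.3% of WT cells and 81.1% of KO cells had a name, and 31 WT and 27 KO classes held 20 or more cells. No gene of a class's own marker list was at 0 in that class in either library, the cycling classes not counted. The same lists gave the names, so this is no check on them. Levels are CPM of the UMIs summed over a class, with exact Poisson 95% intervals, and ratios are given as log2 with the exact interval for the ratio of 2 counts. These intervals cover counting error only, the UMIs of 1 cell are not independent, and no p-value can be given. Levels of different genes are not compared, because 3′ counting captures genes unequally.

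EGF family ligands are made as proteins anchored in the membrane, and metalloproteases such as ADAM17 cut them free so that they act on the same cell or on a neighbour. AREG and TGFA bind EGFR, while EREG and HBEGF bind both EGFR and ERBB4, EPGN acts mainly through EGFR, and NRG1 binds ERBB3 and ERBB4. ERBB2 has no known ligand and serves as the favoured partner of the other receptors, and ERBB3 has a weak kinase and signals through its partners. In the lung the pathway is known for a part in epithelial repair, and amphiregulin is also made by immune cells such as group 2 innate lymphoid cells (ILC2).

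Epgn, Ereg and Areg lie next to each other on chromosome 5 of GRCm38, all on the plus strand. Epgn spans 91027464 to 91035215, Ereg 91074622 to 91093646 and Areg 91139599 to 91148432, with gaps of 39.4 kb and 46.0 kb between them. A RefSeq promoter window of 300 bases (GRCm38.p6) was matched for 6 of the 10 members, Areg, Epgn, Tgfa, Egfr, Erbb2 and Erbb4. The 8-base cyclic AMP response element (CRE), TGACGTCA, was searched on both strands and was in 1.79% of 32851 windows, and of the 6 members only Areg held it, starting at position -61 from the gene's start. The AP-1 motif TGANTCA, which does not overlap the CRE in this window, was in 7.81% of windows and in none of the 6. The TATA box letters TATAAA were in 13.6% of windows and in those of Areg, at -31, and Epgn. The 250 bases before the start of Areg are shown because Areg is the ligand with the most UMIs here, with the CRE and the TATA letters in capitals; a match describes the letters and is not evidence of binding.
Areg promoter, chr5:91139349-91139598, plus strand, GRCm38.p6: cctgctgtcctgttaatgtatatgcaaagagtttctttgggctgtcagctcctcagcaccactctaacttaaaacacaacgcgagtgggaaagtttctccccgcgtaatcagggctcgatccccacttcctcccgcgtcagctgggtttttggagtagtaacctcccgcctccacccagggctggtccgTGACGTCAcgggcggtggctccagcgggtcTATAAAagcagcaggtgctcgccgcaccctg

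**Figure D1:**
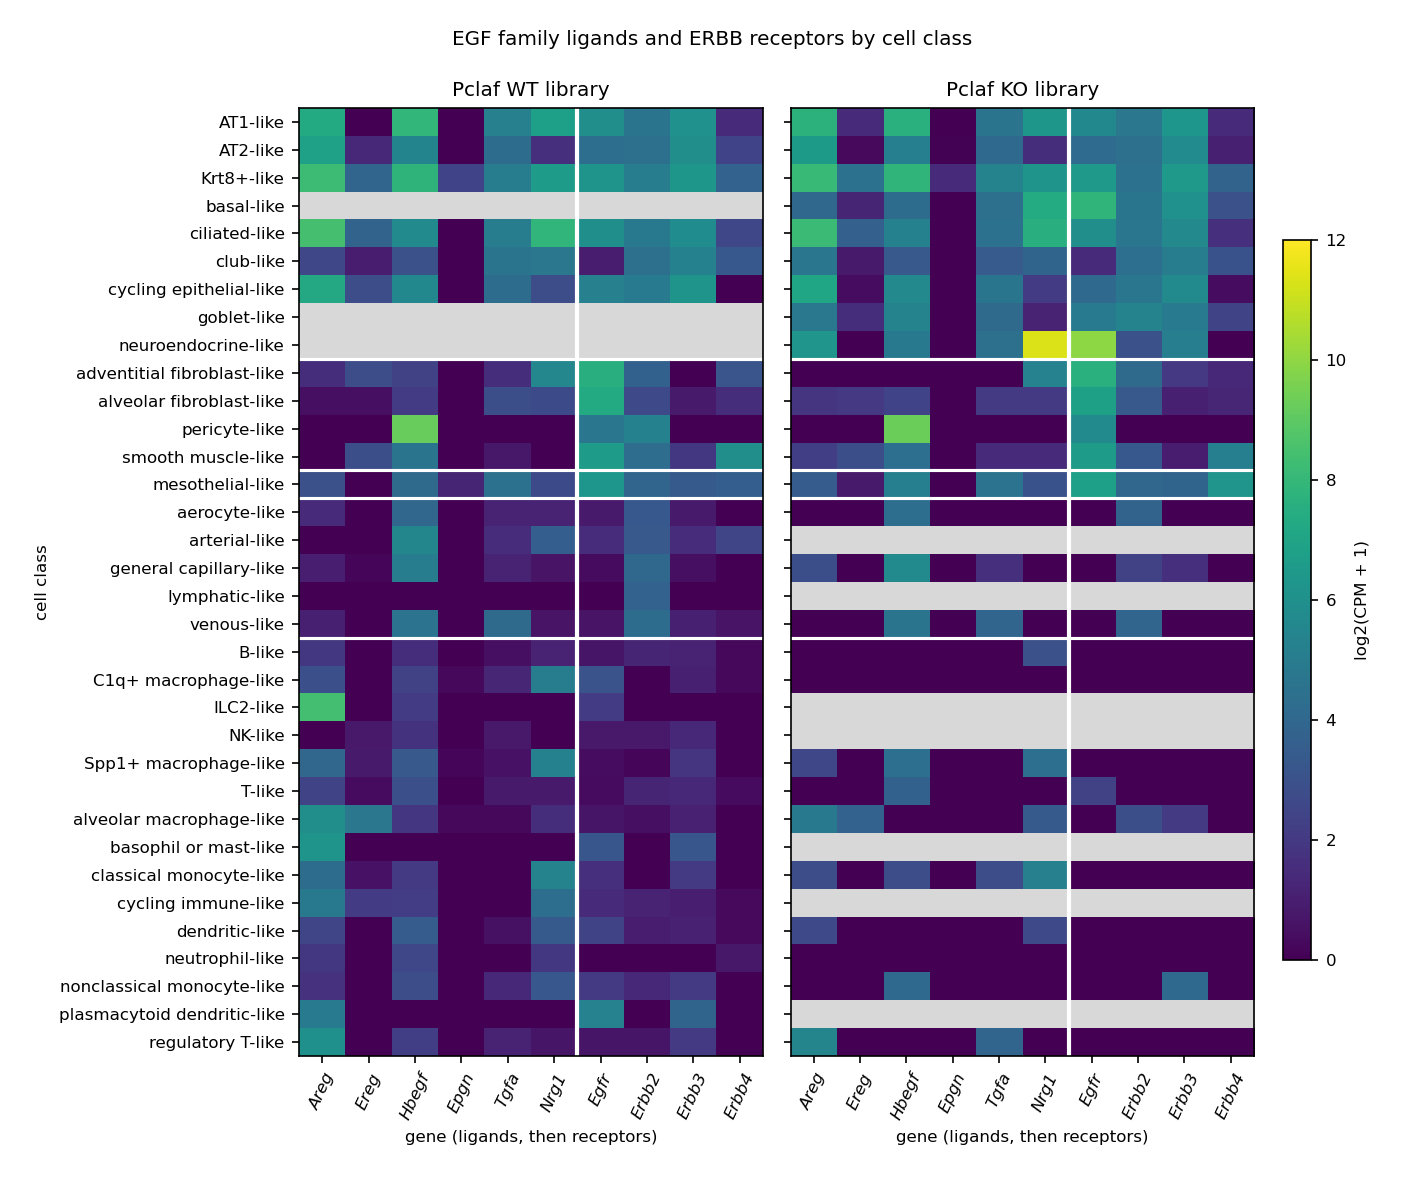
Level of each member (columns, ligands then receptors) in each cell class (rows, grouped by lineage) as log2(CPM + 1), in the WT library on the left and the KO library on the right; grey rows held fewer than 20 cells. The brightest cells are Nrg1 at 2676 CPM and Egfr at 985 CPM in KO neuroendocrine-like cells, and Hbegf at 585 and 639 CPM in pericyte-like cells.

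Among the ligands, Areg was highest in ciliated-like, Krt8+-like and ILC2-like cells. It was at 349 CPM (310 to 392) in WT ciliated-like cells and 285 CPM (274 to 296) in KO. In Krt8+-like cells, an intermediate alveolar state seen after injury, it was at 297 CPM (263 to 334) in WT and 271 CPM (258 to 284) in KO. ILC2-like cells, of which the KO library held 7, fewer than the 20 needed for a value, were at 336 CPM (273 to 410) in WT. The intervals of these classes overlapped within each library. AT1-like cells, named for the flat cells of gas exchange, followed at 163 and 208 CPM. Cycling epithelial-like cells were at 151 and 137 CPM, and AT2-like cells, which make surfactant and renew the alveolus, at 117 and 93.2 CPM. Nearly all AT1-like Areg UMIs lay in cluster 5 of that class. Its cluster 12, which was richer in the AT1 gene Ager, held 0 in WT and 6 in KO. Krt8+-like cells were above AT2-like cells by 1.35 on the log2 scale (1.09 to 1.61) in WT and by 1.54 (1.45 to 1.62) in KO. With TMM scaling, which allows for a few genes taking up much of a library, these differences were 0.72 and 0.73, and ciliated-like cells were above Krt8+-like cells by 0.43 (0.19 to 0.67) and 0.36 (0.27 to 0.45). Surfactant genes take up much of AT2-like RNA: Sftpc, the surfactant protein C gene, alone was at 143500 CPM in WT against 167000 CPM in KO.

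Immune classes held Areg too. Regulatory T-like cells were at 64.7 CPM in WT against 42.5 CPM in KO, where the value rests on 3 UMIs in 27 cells, and alveolar macrophage-like cells were at 60.3 CPM (53.8 to 67.5) and 28.3 CPM (12.9 to 53.7). The 74.0 CPM of basophil or mast-like WT cells came from 9 UMIs in 1 cell, and the 75.4 CPM of KO neuroendocrine-like cells from 4 of 47 cells. B-like cells, taken as the class that should lack it, were at 2.81 CPM in WT. In KO, 0 UMIs were found in 61 B-like cells, which allows up to 20.9 CPM. Here and below, the limit given for 0 UMIs is the level that 3 UMIs would make. It lies under the upper end of the exact interval, 25.65 CPM for these B-like cells. Over all kept cells, epithelial clusters held 53.7% of Areg UMIs in WT with 9.79% of all UMIs, and 96.9% in KO with 79.5% of all UMIs. Immune clusters held 39.7% of Areg UMIs in WT with 48.1% of all UMIs.

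Only a part of the cells in each class carried an Areg UMI. A UMI was seen in 46.5% of WT and 51.2% of KO ciliated-like cells at median depths of 5755 and 7413 UMIs, and in 25.3% and 29.6% of Krt8+-like cells at 4148 and 5361 UMIs. At an equal depth of 1000 UMIs per cell, the shares expected were 19.6% and 17.6% of ciliated-like, 13.4% and 12.4% of Krt8+-like, 7.93% and 6.29% of AT2-like and 22.0% of WT ILC2-like cells. B-like cells gave 0.342% in WT at a median depth of 1836 UMIs, or 0.186% at equal depth, far under these classes. The UMIs were concentrated: in WT Krt8+-like cells 38.9% of Areg UMIs lay in 5 of 190 cells, and in KO 17.6% lay in 5 of 953.

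Ereg, from the gene next to Areg, was scarce, with 293 UMIs in WT and 338 in KO. Alveolar macrophage-like cells were at 25.7 CPM (21.5 to 30.4) in WT and 12.6 CPM in KO, Krt8+-like cells at 13.9 and 22.2 CPM, and ciliated-like cells at 13.3 and 11.9 CPM. AT2-like cells were at 1.59 and 0.220 CPM, so that Krt8+-like cells were above them by 3.13 (1.26 to 5.58) and 6.66 (5.69 to 7.82) on the log2 scale. TMM scaling made these differences 2.49 and 5.85. Epgn had 10 UMIs in WT and 14 in KO, of which 4 and 10 were in Krt8+-like cells. At this depth no difference in Epgn could be shown.

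Hbegf had its highest level outside the epithelium. Pericyte-like cells, the contractile cells that wrap capillaries, were at 585 CPM (471 to 717) in 73 WT cells and 639 CPM (450 to 880) in 25 KO cells. A UMI was seen in 53.4% and 64.0% of them, at median depths of 1885 and 2058 UMIs. Smooth muscle-like cells, which share contractile genes with pericytes, were at 23.3 and 19.8 CPM, lower by 4.65 (4.06 to 5.27) and 5.01 (4.21 to 5.84) on the log2 scale. In the epithelium, AT1-like cells were at 245 and 195 CPM and Krt8+-like cells at 222 and 228 CPM. The AT1-like value joins 2 unlike clusters, described below. Hbegf was at 485 and 510 CPM in their Ager-rich cluster 12 and at 133 and 117 CPM in their cluster 5. AT1-like and Krt8+-like cells differed by 0.14 (-0.18 to 0.45) in WT, an interval that held 0, and by -0.22 (-0.33 to -0.11) in KO. With TMM scaling the difference was 0.50 (0.18 to 0.81) in WT and turned to 0.22 (0.11 to 0.32) in KO. AT2-like cells were far lower, at 41.96 and 35.2 CPM, so that Krt8+-like cells were above them by 2.41 (2.03 to 2.80) and 2.69 (2.58 to 2.80). TMM scaling made these differences 1.78 and 1.88. Among endothelial classes, WT arterial-like cells were at 43.8 CPM and general capillary-like cells at 32.9 and 52.4 CPM. Venous-like cells were at 22.9 and 23.2 CPM and aerocyte-like cells at 14.5 and 19.4 CPM. The 57 WT lymphatic-like cells held 0 Hbegf UMIs, which allows up to 19.2 CPM. Endothelial clusters held 30.2% of Hbegf UMIs in WT, with 25.45% of all UMIs.

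Tgfa had 381 UMIs in WT and 1603 in KO and was spread over the epithelium. AT1-like cells were at 36.9 CPM (23.1 to 55.8) in WT and 23.2 CPM (19.7 to 27.0) in KO, Krt8+-like cells at 32.1 and 39.8 CPM, ciliated-like cells at 32.7 and 22.2 CPM, club-like cells at 23.3 and 9.81 CPM and AT2-like cells at 18.1 and 16.2 CPM. Outside the epithelium, mesothelial-like cells, which line the lung's surface, were at 22.2 and 22.4 CPM and WT venous-like cells at 16.9 CPM. Krt8+-like cells were above AT2-like cells by 0.83 (0.07 to 1.58) in WT and 1.30 (1.08 to 1.52) in KO, and AT1-like cells above AT2-like cells by 1.03 (0.19 to 1.85) and 0.52 (0.26 to 0.77). With TMM scaling, Krt8+-like over AT2-like cells in KO stayed past 0, at 0.49 (0.27 to 0.71), and the other 3 intervals held 0.

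Nrg1 was nearly absent from AT2-like cells and present in several other classes. KO neuroendocrine-like cells were far above every other class with 20 or more cells, at 2676 CPM (2525 to 2834), with a UMI in all 47 cells and 31.7% of the 1171 UMIs in 5 of them; the 7 WT cells of that name were too few for a value. Ciliated-like cells were at 239 CPM (207 to 274) in WT and 191 CPM (182 to 200) in KO, KO basal-like cells at 168 CPM, AT1-like cells at 107 and 81.6 CPM and Krt8+-like cells at 96.2 and 73.6 CPM. AT2-like cells were at 2.12 and 2.00 CPM, so that Krt8+-like cells were above them by 5.50 (4.10 to 7.41) and 5.20 (4.86 to 5.56) on the log2 scale. TMM scaling made these differences 4.87 and 4.39. B-like cells were at 1.202 CPM in WT and had 1 UMI in KO, so the AT2-like level was near that of the class taken as lacking the gene. Adventitial fibroblast-like cells were at 46.3 and 39.1 CPM, all of it in their cluster 12 (113 and 70.8 CPM), while their cluster 10 had 0 Nrg1 UMIs in both libraries. Among immune classes, classical monocyte-like cells were at 40.3 CPM in WT, Spp1+ macrophage-like cells at 37.7 CPM and C1q+ macrophage-like cells at 33.4 CPM. Immune clusters held 45.6% of Nrg1 UMIs in WT, near their 48.1% of all UMIs.

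**Figure D2:**
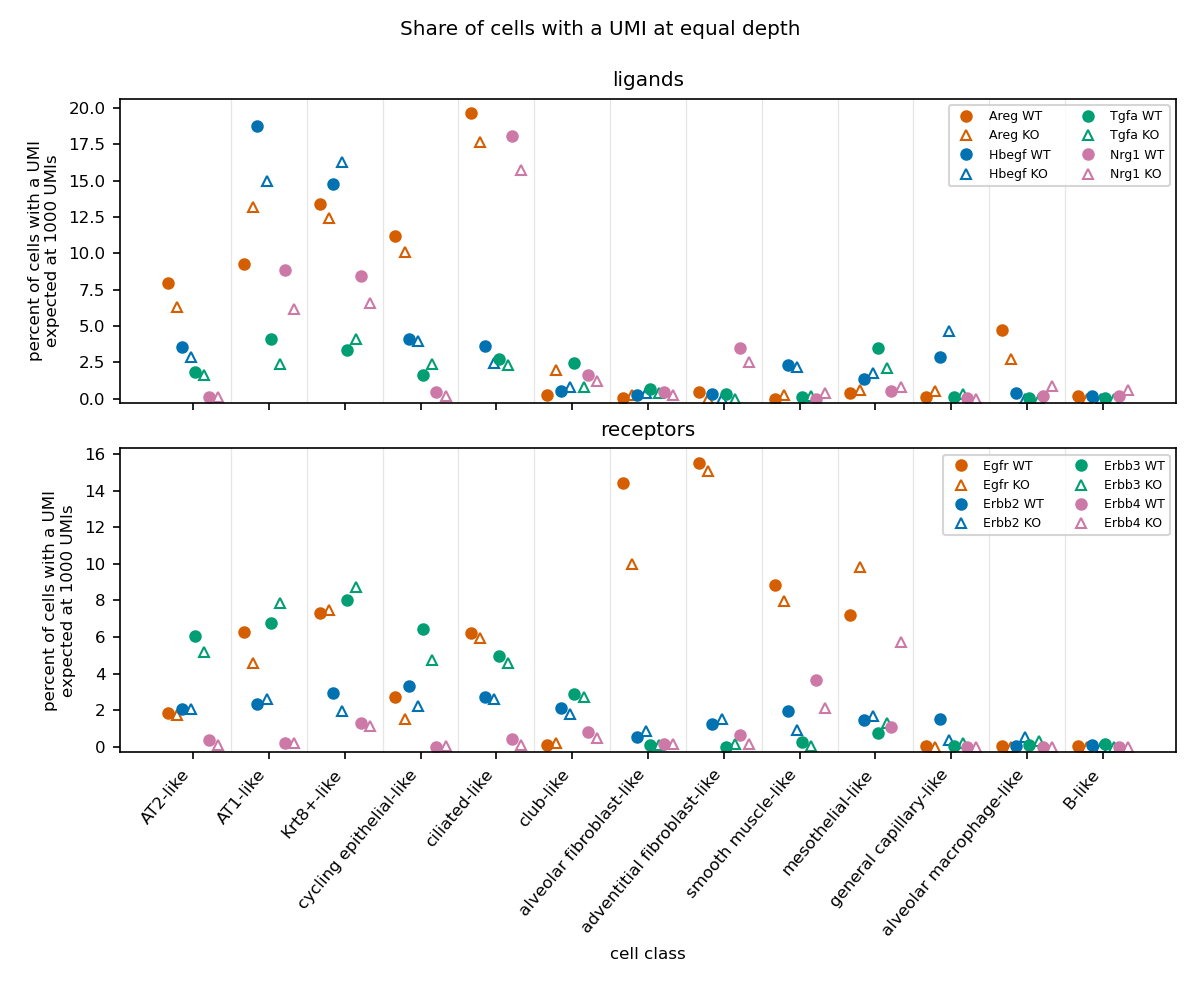
Percent of cells with a UMI expected at 1000 UMIs per cell (vertical axis) for 4 ligands (top) and the 4 receptors (bottom) in 13 cell classes (horizontal axis); filled circles are WT, open triangles KO, and colours mark genes. Among the classes drawn, which leave out ILC2-like, pericyte-like, basal-like and neuroendocrine-like cells, Areg was expected in 19.6% and 17.6% of ciliated-like cells and Egfr in 15.1% of KO adventitial fibroblast-like cells, while B-like cells lay near 0.

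Of the receptors, Egfr was found in fibroblasts and in several epithelial classes, and was lower in AT2-like than in fibroblast-like cells. Adventitial fibroblast-like cells were at 187 CPM (151 to 230) in WT and 194 CPM (162 to 230) in KO, alveolar fibroblast-like cells at 161 CPM (146 to 178) and 110 CPM (102 to 120), smooth muscle-like cells at 98.8 and 94.7 CPM, and mesothelial-like cells at 79.0 and 108 CPM. Cluster 10 held most WT adventitial fibroblast-like cells and cluster 12 of the mesenchymal clusters most KO cells. Krt8+-like cells were at 73.8 and 89.1 CPM, ciliated-like cells at 61.8 and 60.8 CPM, AT1-like cells at 60.3 and 47.0 CPM and AT2-like cells at 19.1 and 17.5 CPM. Alveolar fibroblast-like cells were above AT2-like cells by 3.07 (2.58 to 3.61) in WT and 2.66 (2.50 to 2.82) in KO, and Krt8+-like cells above AT2-like cells by 1.95 (1.35 to 2.57) and 2.35 (2.18 to 2.51). TMM scaling gave 2.73 and 2.24 for alveolar fibroblast-like and 1.32 and 1.54 for Krt8+-like cells. Adventitial and alveolar fibroblast-like cells differed by 0.22 (-0.12 to 0.55) in WT, an interval that held 0, and by 0.81 (0.52 to 1.09) in KO. Club-like cells, the secretory cells of the airway, were at 0.973 CPM in WT, from 1 UMI, and 1.83 CPM in KO, below Krt8+-like cells by 6.25 (3.72 to 11.6) and 5.61 (4.90 to 6.43) on the log2 scale.

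The highest Egfr level was in KO neuroendocrine-like cells, and basal-like KO cells came next; WT held 7 and 9 cells of these names, too few for a value. Neuroendocrine-like cells were at 985 CPM (894 to 1083), with a UMI in 46 of 47 cells, and basal-like cells, the stem cells of the airway, at 227 CPM (194 to 265), an interval that overlapped that of adventitial fibroblast-like cells. At equal depth, 53.3% of neuroendocrine-like, 19.6% of basal-like and 15.1% of adventitial fibroblast-like KO cells were expected to show an Egfr UMI. Mesenchymal clusters held 68.8% of Egfr UMIs in WT and 32.8% in KO, with 12.8% and 15.5% of all UMIs. Not all of these were in named classes. An unnamed mesenchymal cluster held 322 Egfr UMIs in WT, at 115 CPM, and 464 in KO, at 88.5 CPM. Named classes with 20 or more cells held 56.0% of Egfr UMIs in WT and 83.55% in KO. For Hbegf and Erbb2 in WT they held 58.4% and 54.4%.

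Erbb3 was mostly epithelial. Its level was 53.8 CPM over the epithelial clusters of WT and 54.5 CPM over those of KO, against 2.20 and 8.08 CPM in mesenchymal, 0.780 and 0.798 CPM in endothelial and 1.93 and 6.56 CPM in immune clusters. These first-round clusters include cells that had no class name in the end. Of the 128 Erbb3 UMIs in KO mesenchymal clusters, alveolar fibroblast-like cells held 6, at 1.10 CPM. The KO immune value came from 15 UMIs. Within the epithelium, Krt8+-like cells were at 81.3 CPM (64.0 to 102) and 89.7 CPM (82.3 to 97.7), AT1-like cells at 67.0 and 78.7 CPM, AT2-like cells at 60.0 and 54.0 CPM, ciliated-like cells at 56.9 and 49.7 CPM and club-like cells at 37.9 and 32.6 CPM. Krt8+-like cells were above AT2-like cells by 0.73 (0.59 to 0.87) in KO, and by 0.44 (-0.00 to 0.87) in WT, where the interval just reached 0. With TMM scaling the difference was -0.08 (-0.22 to 0.06) in KO and -0.19 (-0.63 to 0.24) in WT, so that both intervals held 0.

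Erbb2, the partner without a ligand, lay in a narrow range across the WT epithelial classes with 20 or more UMIs. It was at 21.7 CPM over the epithelial, 12.98 CPM over the endothelial, 11.2 CPM over the mesenchymal and 1.13 CPM over the immune clusters of WT. Epithelial classes lay between 20.4 CPM in club-like and 33.2 CPM in Krt8+-like cells in WT among those with 20 or more UMIs, and in KO goblet-like cells, the mucus-making cells of the airway, reached 40.5 CPM. Krt8+-like and AT2-like cells differed by 0.68 (-0.05 to 1.40) in WT and 0.04 (-0.25 to 0.31) in KO, both intervals holding 0. With TMM scaling Krt8+-like cells were below AT2-like cells in KO, by -0.77 (-1.06 to -0.50), and the WT interval still held 0. Endothelial clusters held 43.1% of Erbb2 UMIs in WT and 25.45% of all UMIs. WT venous-like cells were at 18.0 CPM and general capillary-like cells at 15.5 CPM.

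Erbb4 had the fewest UMIs of the 4 receptors, 181 in WT and 385 in KO, which is a count and not a level set against other genes. Smooth muscle-like cells were at 59.3 CPM (47.3 to 73.4) in WT and 35.2 CPM (25.0 to 48.1) in KO, mesothelial-like cells at 11.1 and 75.2 CPM, and Krt8+-like cells at 12.8 and 13.1 CPM. AT2-like cells were at 4.25 CPM, from 8 UMIs, and 1.10 CPM.

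**Figure D3:**
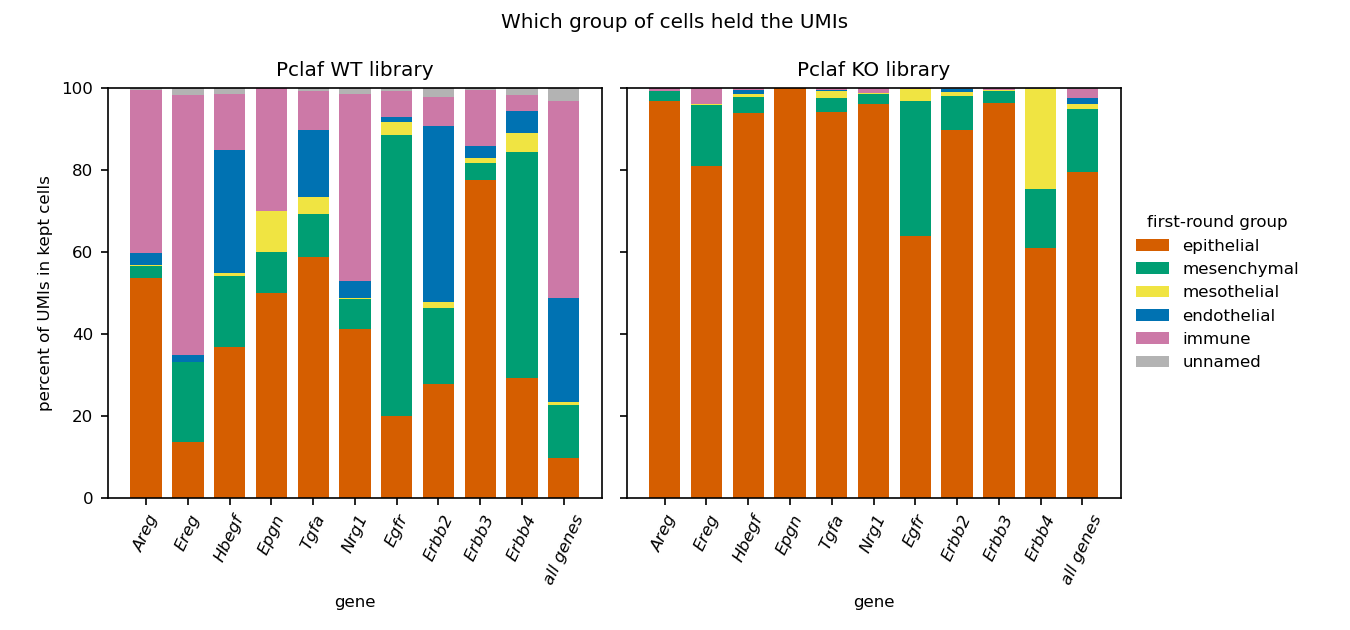
Percent of each gene's UMIs (vertical axis) held by epithelial, mesenchymal, mesothelial, endothelial, immune and unnamed groups of kept cells in WT (left) and KO (right); the last bar gives the share of all UMIs. In WT, epithelial clusters held 9.79% of all UMIs but 77.7% of those of Erbb3 and 58.8% of those of Tgfa, whereas mesenchymal clusters held 68.8% of those of Egfr.

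Ligand and receptor RNA were often found in the same class, and at times under the same cell barcode. In KO ciliated-like cells, 217 of 1089 had a UMI of both Nrg1 and Erbb3, where 616 had Nrg1 and 328 Erbb3. Both Areg and Egfr were seen in 195, where 557 had Areg and 319 Egfr. In KO Krt8+-like cells, 143 of 953 had both Hbegf and Egfr and 80 both Areg and Egfr, where 420 had Hbegf, 282 Areg and 251 Egfr. In WT ciliated-like cells Nrg1 and Erbb3 were both seen in 27 of 127 cells, where 75 had Nrg1 and 38 Erbb3. AT2-like cells were less often doubly marked, with Areg and Egfr in 135 of 5820 KO cells, where 1294 had Areg and 573 Egfr. Whether any pair met more or less often than its single counts would give was not tested. These counts rise with depth and with the level of each gene, and describe RNA, not release or binding of the proteins. A barcode can also hold RNA of several cells, a doublet, and doublets called by the program Scrublet were left in. Scrublet called 7.76% in WT and 2.70% in KO, where 24.15% and 12.51% were expected. The part of doublets in these counts was not tested.

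AT1-like cells were made of 2 clusters in both libraries that differed in Areg, Hbegf, Tgfa and Nrg1. The first, cluster 12, held 41 WT and 218 KO cells and the higher level of Ager, an AT1 gene, at 11540 and 14960 CPM. The second, cluster 5, held 71 WT and 763 KO cells, with Ager at 2643 and 2767 CPM and Sftpc, an AT2 gene, at 87020 and 120100 CPM, so the name AT1-like is mixed there. Areg had 0 UMIs in cluster 12 in WT, which allows up to 15.8 CPM, and 6 in KO, or 4.28 CPM, against 238 and 258 CPM in cluster 5. Hbegf was the other way, at 485 and 510 CPM in cluster 12 and 133 and 117 CPM in cluster 5, higher in cluster 12 by 1.87 (1.37 to 2.38) and 2.12 (1.97 to 2.28) on the log2 scale. Nrg1 was at 195 and 317 CPM in cluster 12 and 66.3 and 22.9 CPM in cluster 5, and Tgfa at 68.6 and 43.5 CPM and 22.1 and 18.1 CPM. Egfr was at 137 and 178 CPM in cluster 12 and 24.6 and 14.6 CPM in cluster 5, higher by 2.48 (1.38 to 3.70) and 3.61 (3.24 to 3.99). Erbb2 did not differ beyond its interval in either library, and Erbb3 was higher in cluster 12 in KO only, by 0.43 (0.14 to 0.71). The members were not used to form these clusters, which were looked at after the class values were seen.

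AT2-like cells likewise held a cluster rich in Areg, cluster 1, with 40.3% of WT and 30.4% of KO AT2-like cells. Areg was at 196 CPM there in WT and 178 CPM in KO, against 47.7 and 45.5 CPM in the other AT2-like clusters, higher by 2.04 (1.57 to 2.54) and 1.97 (1.87 to 2.07). Hbegf was at 68.5 and 68.4 CPM against 18.9 and 16.6 CPM. The immediate early genes Fos and Egr1, which many stimuli and also tissue dissociation can raise within minutes, moved with them: Fos was at 1261 and 1070 CPM against 128 and 119 CPM, and Egr1 at 683 and 562 CPM against 23.8 and 23.3 CPM. Both were among the genes that could form the clusters, and their part in the result was not tested. Egfr was at 20.6 and 17.9 CPM in cluster 1 against 17.9 and 17.3 CPM elsewhere, and Erbb3 at 54.8 and 56.5 CPM against 64.5 and 52.6 CPM, with intervals that held 0. Erbb2 was lower in cluster 1 in KO, by -0.31 (-0.53 to -0.10), while its WT interval held 0.

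**Figure D4:**
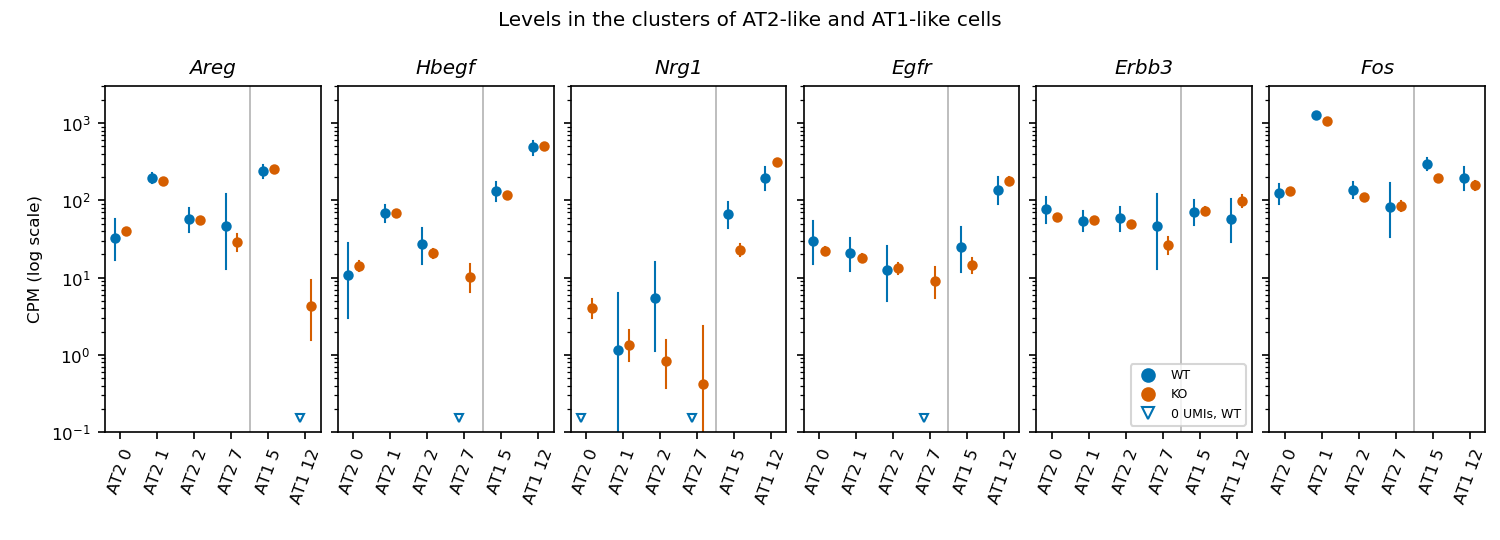
Level in CPM on a log axis of 3 ligands, 2 receptors and Fos in the clusters that make up AT2-like cells (0, 1, 2 and 7, left of the grey line) and, right of it, AT1-like cells (5 and 12), with exact 95% Poisson intervals; blue is WT, orange KO, and open triangles on the floor mark 0 UMIs. Areg was high in clusters 1 and 5 and near 0 in cluster 12, where Hbegf, Nrg1 and Egfr were highest.

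Between the libraries, most ratios were within counting error. In the 24 classes given in both libraries, 87 log2 ratios of KO over WT had 20 or more UMIs. B-like, neutrophil-like and nonclassical monocyte-like cells gave none of them. The interval lay above 0 in 5, below 0 in 15, and held 0 in 67. Over all genes and all 24 classes, 4.55% of 228114 ratios had an interval above 0 and 8.87% below 0. These shares are not matched to the members, since 46 of the 87 ratios were in epithelial classes and the share differs by class. The median of the 87 was -0.20. Over all genes the median was also below 0 in each class, from -0.42 in regulatory T-like to -0.01 in ciliated-like cells, with AT2-like cells at -0.12. TMM scaling added 0.30 to every ratio in AT2-like, 0.20 in AT1-like, 0.12 in Krt8+-like, 0.21 in ciliated-like, 0.26 in club-like and 0.23 in alveolar fibroblast-like cells. Of the 20 ratios past 0, 12 stayed past 0 in the same direction under it, and none of the 20 changed sign. Past 0 with TMM scaling alone were Egfr in Krt8+-like (0.40) and mesothelial-like cells (0.61) and Erbb2 in alveolar fibroblast-like cells (1.05). Of all 87 ratios, 15 changed sign.

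In AT2-like cells, no member of the 8 with 20 or more UMIs had an interval above 0, where the background over all genes was 1.92%, and 2 had one below 0, where it was 15.3%. At least 2-fold higher were 0 of the 8 (background 5.03%) and at least 2-fold lower was 1 (5.9%). Areg, at 117 CPM in WT against 93.2 CPM in KO, had a ratio of -0.33 (-0.53 to -0.12), which was -0.02 (-0.22 to 0.18) with TMM scaling. The largest AT2-like cluster was cluster 1 in WT, with 40.3% of the cells, and cluster 0 in KO, with 36.2%. Within the 4 clusters, the Areg ratio was 0.27, -0.14, -0.04 and -0.71 in clusters 0, 1, 2 and 7, each with an interval that held 0. Erbb4 had a ratio of -1.95 (-3.05 to -0.65), from 8 UMIs in WT and 45 in KO. Egfr had a ratio of -0.13, Erbb2 of -0.00 and Erbb3 of -0.15, each with an interval that held 0.

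In Krt8+-like cells, 0 of 9 members had an interval above 0 (background 5.74%) and 2 below 0 (10.4%), and none was at least 2-fold higher (5.78%) or lower (3.77%). Areg had a ratio of -0.13 (-0.32 to 0.05). Nrg1 was lower in KO, with a ratio of -0.39 (-0.72 to -0.04), and so was Erbb2, at -0.65 (-1.22 to -0.03), but both intervals held 0 with TMM scaling. Egfr had a ratio of 0.27, and with TMM scaling 0.40 (0.03 to 0.78). Sftpc was at 3740 CPM in WT against 19710 CPM in KO Krt8+-like cells, and its part in these ratios was not tested.

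In AT1-like cells, 1 of 7 members had an interval above 0 (background 2.87%) and 1 below 0 (11.0%), and none was at least 2-fold higher (5.94%) or lower (5.0%). Areg was higher in KO, with a ratio of 0.35 (0.06 to 0.67), or 0.55 (0.26 to 0.87) with TMM scaling. Hbegf was lower, at -0.33 (-0.57 to -0.07), though with TMM scaling its interval held 0. Cluster 12, with little Areg and much Hbegf, made up 36.6% of AT1-like cells in WT and 22.2% in KO. Within it Hbegf was at 485 and 510 CPM, and within cluster 5 Areg was at 238 and 258 CPM, a ratio of 0.12 (-0.18 to 0.43). The cluster ratios are without TMM scaling, which added 0.20 to every ratio of the class. The part of the clusters' shares in the class ratios was not tested. Nrg1 went opposite ways, with KO over WT at 0.70 (0.22 to 1.23) in cluster 12 and -1.53 (-2.14 to -0.88) in cluster 5.

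**Figure D5:**
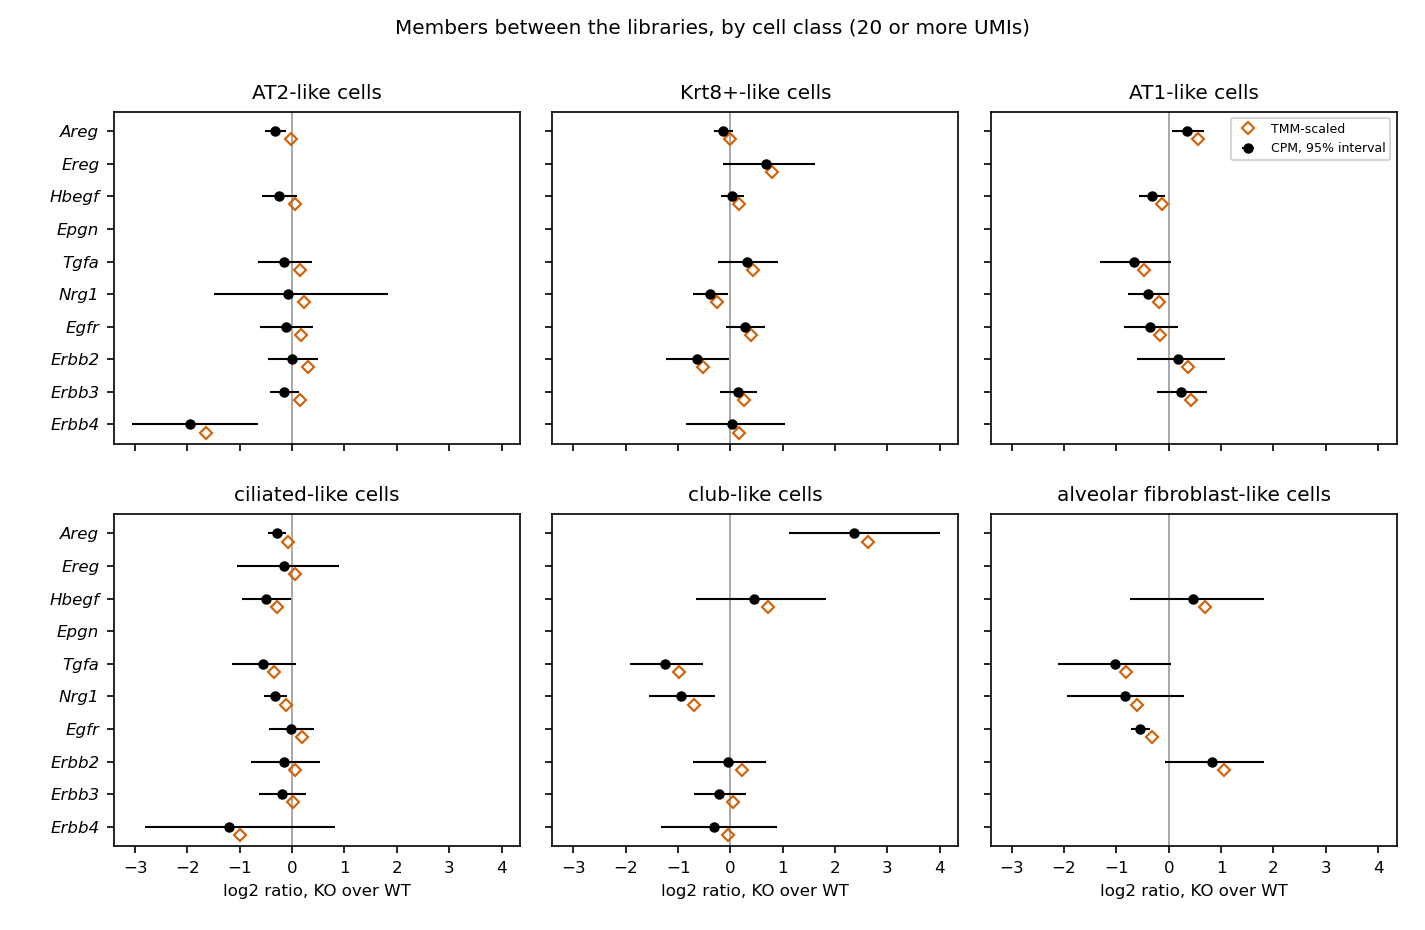
Log2 ratio of CPM, KO over WT (horizontal axis), for each member with 20 or more UMIs (vertical axis) in 6 cell classes; black points with bars are the ratios with exact 95% intervals for counting error, and orange diamonds the TMM-scaled ratios. Most bars cross 0; Areg in club-like cells lies farthest to the right, at 2.36.

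Airway and other classes held the remaining ratios past 0. In ciliated-like cells, Areg (-0.29), Hbegf (-0.50) and Nrg1 (-0.32) were lower in KO, 3 of 9 members against 11.5% of all genes in either direction, and all 3 intervals held 0 with TMM scaling. In club-like cells, 3 of 7 members were past 0 against 17.9%. Areg was higher in KO, from 4.86 to 25.0 CPM, a ratio of 2.36 (1.12 to 4.00), while Tgfa had a ratio of -1.25 (-1.91 to -0.53) and Nrg1 one of -0.95 (-1.57 to -0.29). Cluster 8 held 49.7% of WT and 52.0% of KO club-like cells, and cluster 9 held 50.3% and 48.0%, so their make-up hardly differed. Areg was at 4.57 and 30.6 CPM in cluster 8 and 6.57 and 4.27 CPM in cluster 9. Its ratio was 2.745 (1.367 to 4.634) in cluster 8, from 4 UMIs in WT, and the interval in cluster 9 held 0. Sftpc was at 3033 CPM in WT against 14450 CPM in KO in cluster 8, and the secretory gene Lcn2 at 234 and 401 CPM. The median depth was 8804 UMIs in WT and 13350 in KO in cluster 8, against 1326 and 2908 in cluster 9, and the part of these values in the ratios was not tested. In alveolar fibroblast-like cells, Egfr was the 1 of 5 members past 0 against 28.1%, at -0.54 (-0.73 to -0.36), and it was lower in both of their clusters, by -0.55 and -0.46.

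In mesothelial-like cells, 2 of 6 members were past 0 against 22.7%. Erbb4 had a ratio of 2.76 (1.72 to 4.02), with 51.1% of the KO UMIs in 5 of 172 cells, and Hbegf one of 1.08 (0.14 to 2.14), with 88.6% in 5 cells. The summed level of 8 epithelial markers in these cells was 407 CPM in WT (1 marker at 0) against 740 CPM in KO (none at 0), that of 6 immune markers 622 and 277 CPM (none at 0) and that of 7 endothelial markers 722 and 221.5 CPM (2 at 0 in KO); their part in the ratios was not tested. In smooth muscle-like cells, Erbb4 was the 1 of 4 past 0 against 21.9%, at -0.75 (-1.34 to -0.19). Cluster 6 held most WT smooth muscle-like cells and cluster 7 most KO cells, and the Erbb4 ratio was -0.79 (-1.54 to -0.10) in cluster 6 and 0.11 (-1.06 to 1.32) in cluster 7. In general capillary-like cells both members with enough UMIs were past 0 against 17.6%, with Hbegf at 0.67, whose interval held 0 with TMM scaling, and Erbb2 at -1.89, from 111 UMIs in WT and 2 in KO. In alveolar macrophage-like cells, Areg was the 1 of 2 past 0 against 8.15%, at -1.09, with 9 KO UMIs in 4 of 39 cells. In C1q+ macrophage-like cells, Nrg1 was the 1 of 3 against 5.58%, with 159 UMIs in WT and 0 in 25 KO cells, which allows up to 22.8 CPM.

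The wider pathway was followed with 32 other genes in 5 lists. Of the other ERBB ligands, Nrg2 was highest in mesothelial-like cells, at 363 CPM in WT against 146 CPM in KO, and in alveolar fibroblast-like cells, at 209 and 187 CPM. Nrg4 was highest in alveolar macrophage-like cells, at 94.2 and 113 CPM. Btc (betacellulin) reached 20.1 CPM in WT AT1-like cells and 20.5 CPM in KO club-like cells, Nrg3 reached 5.55 CPM in KO Krt8+-like cells, and Egf itself had no class with more than 17 UMIs in WT. Adam17, the main shedding enzyme, was highest in C1q+ macrophage-like cells, at 138 and 228 CPM.

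In AT2-like cells, 28 of the 32 pathway genes had 20 or more UMIs, and 0 had an interval above and 7 below 0, where the background over all genes was 1.92% and 15.3%. By list, 2 of 4 shedding genes, 2 of 10 feedback inhibitors and 3 of 7 ERK-induced targets were below 0, and none of 2 other ligands or 5 adaptors was past 0. Errfi1, a feedback inhibitor of EGFR that was highest in AT2-like cells, went from 580 to 369 CPM, a ratio of -0.65 (-0.74 to -0.56). Egr1 had a ratio of -0.60, Fos of -0.50, Adam10 of -0.48 and Adam17 of -0.44. With TMM scaling, 5 genes were above and 3 below 0, Errfi1 (-0.35), Egr1 (-0.30) and Fos (-0.20) stayed lower, the intervals of Adam10 and Adam17 held 0, and 12 of the 28 changed sign. Cluster 1, rich in Fos and Egr1, made up 40.3% of WT and 30.4% of KO AT2-like cells. Within clusters 0, 1, 2 and 7 the TMM-scaled ratio of Fos was 0.39, 0.07, 0.00 and 0.34. That of Egr1 was 1.45, 0.02, 0.12 and 0.41, and each of these intervals held 0. The scaling added the shift of the whole class to each cluster. Without it, both genes were below 0 in cluster 1, Fos at -0.24 (-0.33 to -0.15) and Egr1 at -0.28 (-0.40 to -0.16). In the other clusters the unscaled intervals held 0.

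In Krt8+-like cells, 3 of 28 pathway genes had an interval above 0 and 8 below, against a background of 5.74% and 10.4%, and with TMM scaling 4 and 5. By list, 1 of 5 adaptors was above 0, 3 of 9 feedback inhibitors were below 0, 2 of 8 ERK-induced targets were above and 5 below, and neither the 4 shedding genes nor the 2 other ligands were past 0. Etv5, an ERK-induced transcription factor, went from 51.3 to 96.8 CPM, a ratio of 0.92 (0.49 to 1.37). Etv5 was highest in AT2-like cells, at 611 CPM in WT against 585 CPM in KO, and Sftpc (3740 and 19710 CPM) and Lcn2 (118 and 466 CPM) were also higher in KO Krt8+-like cells; their part in the Etv5 ratio was not tested. Below 0 were Dusp4 (-1.38) and Dusp5 (-0.75), phosphatases that act on ERK, Spry2 (-0.91), an inhibitor of receptor signalling, and Fosl1 (-0.59). The interval of Dusp5 held 0 with TMM scaling, and the other 4 kept their side. In AT1-like cells 1 of 23 was above and 9 below 0, against a background of 2.87% and 11.0%, and with TMM scaling 2 and 4.

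The genes whose levels followed each member most closely were found by Pearson's r of log2(CPM + 1) over the 58 class-by-library points, among 14425 genes. The points share libraries, depths and cell classes, so r is a description. Areg went with Cdh1, the epithelial cadherin (0.81), Bicdl2 (0.75) and Bspry (0.74), and Erbb3 with Esrp2, an epithelial splicing factor (0.92), H2-Q2 (0.90) and Irx2 (0.90). Egfr went with Neo1 (0.90), Robo1 (0.84) and Eda (0.83), and Nrg1 with Tmem178b (0.71), Mok (0.69) and Igf2bp2 (0.68). Hbegf went with Ttll7 (0.82), Mtcl1 (0.78) and Repin1 (0.76), Tgfa with Cutal (0.85), Tmem30b (0.85) and Ntf5 (0.84), and Ereg with Mt1 (0.74), Pdk4 (0.73) and Gm5427 (0.68). Erbb2 went with Prkaa2 (0.90), P4ha2 (0.88) and Arpin (0.87), and Erbb4 with Pcdh11x (0.82), Col4a6 (0.81) and 1010001N08Rik (0.79). Epgn went with Lce1d (0.89), Slc4a11 (0.84) and Crct1 (0.75), over 20 Epgn UMIs in the named classes. Between members, r was highest for Tgfa with Erbb3 (0.75) and Areg with Erbb3 (0.71).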

How the data were processed

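The deposited files hold UMI counts per gene and cell barcode that the authors made with Cell Ranger (3.1.0 in the submitters' processing notes, 5.0.0 in the matrix headers) on mm10/GRCm38; they are raw and were not normalized. Cells were required to show between 200 and 5000 genes, with less than 20% of UMIs from mitochondrial genes. Both libraries were clustered together in 2 rounds with Seurat 5.3.0 (2000 variable genes without the members, 30 components, resolution 0.8, no integration). A cluster was named where at least 3 markers were raised and its leading genes did not go against the name. Doublets called by Scrublet (scanpy 1.11.5) were left in and removed in an alternative. The calls were 7.76% in WT and 2.70% in KO, below the 24.15% and 12.51% expected. The values without doublets therefore leave out called doublets only. UMIs were summed per class and library (CPM), and ratios needed 20 UMIs over both libraries; where 1 count was 0, 0.5 was added to both. TMM factors came from edgeR 4.0.16, for scaling only; no test was run, since each group is 1 sample. Interval scripts were checked on simulated counts. Named were all members, the 3 genes most like each, and up to 5 pathway genes per class in AT2-like and Krt8+-like cells with the largest ratio past 0. Members, marker and pathway lists were chosen with earlier results of these data known. Total depth was 98171818 UMIs in WT and 111267567 in KO. Alternatives varied the clustering, cell limits, doublets, depth, gating and scaling; TMM scaling of all members was added after seeing the data.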

Additional observations from a re-analysis of the deposited data

Results flagged for a closer look

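Areg differed between WT and KO in opposite directions in different classes: the log2 ratio of KO over WT was 0.35 in AT1-like and 2.36 in club-like cells, but -0.33 in AT2-like, -1.09 in alveolar macrophage-like and -0.29 in ciliated-like cells. Hbegf had ratios of 0.67 in general capillary-like and 1.08 in mesothelial-like cells, but -0.33 in AT1-like and -0.50 in ciliated-like cells. Erbb4 had a ratio of 2.76 in mesothelial-like cells, but -1.95 in AT2-like and -0.75 in smooth muscle-like cells. Each of these intervals excluded 0 by counting error. With TMM scaling the intervals of Areg in AT2-like and ciliated-like cells and of Hbegf in AT1-like, ciliated-like and general capillary-like cells held 0. Within cluster 5 of AT1-like cells the Areg ratio was 0.12 (-0.18 to 0.43) without TMM scaling, which added 0.20 to every ratio of that class. Cluster 12, which held little Areg, made up 36.6% of AT1-like cells in WT and 22.2% in KO.

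Within a class, Nrg1 had ratios of 0.70 in cluster 12 and -1.53 in cluster 5 of AT1-like cells, and Tgfa had ratios of -0.73 in cluster 1 and 2.88 in cluster 2 of AT2-like cells, the last from 1 UMI in WT. The differences between classes and between clusters were not tested, since each genotype is 1 library.

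Barcodes outside the limits on cells, which no comparison uses, also held the members: 468 UMIs of the 10 genes in 482 WT barcodes and 4415 UMIs in 1535 KO barcodes.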

How the results depend on the processing

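No paired analysis was possible because each group is 1 library. Cell numbers of AT2-like, Krt8+-like, AT1-like and alveolar fibroblast-like cells also depended on the settings. Of 80 alternative cell numbers, 24 moved by more than a set fold limit and 56 did not. Of 117 alternative values of 9 log2 ratios, 77 stayed within the main interval, 40 moved outside it, and no ratio whose main interval excluded 0 changed sign. Ratios whose main interval held 0 did change sign: in AT2-like cells the sign was kept in 4 of 13 alternatives for Erbb2, 9 for Erbb3 and 10 for Egfr. Areg in Krt8+-like cells, KO over WT (main -0.13), kept its sign in 7 of 13 alternatives, and was 0.12 at resolution 0.4, 0.12 with the members among the variable genes, 0.14 at a mitochondrial limit of 10 percent, -0.53 with the limits of 200 and 5000 read as UMIs, 0.10 without doublets, -0.05 after thinning to 1000 UMIs and 0.14 with cells gated one by one. Areg in AT2-like cells (main -0.33) was -0.02 with TMM, -0.96 at resolution 1.2 and -0.63 with the limits read as UMIs. For Areg, Krt8+-like over AT2-like cells, WT (main 1.35) gave 0.72 with TMM, 0.63 at resolution 1.2, 0.98 with the members among the variable genes, 0.97 at the mitochondrial limit of 10 percent, 1.82 with limits read as UMIs, 0.88 without doublets and 1.01 after thinning. KO (main 1.54) gave 0.73 with TMM, 1.88 with 10 components, 1.31 with the members among the variable genes, 1.36 at the 10 percent limit, 1.92 with limits read as UMIs, 1.33 without doublets and 1.27 after thinning. For Egfr, alveolar fibroblast-like over AT2-like cells, WT (main 3.07) gave 2.43 with the members among the variable genes, 2.25 with limits read as UMIs and 2.34 with the gate. KO (main 2.66) gave 2.24 with TMM, 2.15 at resolution 1.2, 2.49 with 10 components, 2.25 with the members among the variable genes, 2.41 without an upper limit on genes, 2.37 with limits read as UMIs, 2.46 without doublets, 2.39 after thinning and 2.17 with the gate. These class-over-class ratios stayed above 0 in each alternative run. In AT2-like cells the difference of mean log-normalized values was 0.01 for Egfr, 0.02 for Erbb2 and 0.00 for Erbb3, and Erbb3 (main -0.15) was 0.15 with TMM and 0.33 after thinning. Thinning draws UMIs at random and the cells were then clustered again; another draw moved the class sizes and these values, and put Areg in Krt8+-like cells outside the main interval, so the thinned values are those of 1 draw. The share of genes at least 2-fold higher or lower, at a minimum of 50 UMIs, was 3.24% and 2.78% in AT1-like, 3.1% and 3.1% in AT2-like and 3.32% and 1.64% in Krt8+-like cells. With 10 UMIs the lower share in Krt8+-like cells was 6.35%. The cause of the moves given in this section was not tested. TMM was also applied to 82 other member ratios: 80 stayed within their main interval and none past 0 changed sign. Of 50 other class-over-class ratios, 27 stayed within their main interval with TMM, and 3 past 0 changed sign, all in KO: Areg in Krt8+-like over AT1-like cells (main 0.38) was -0.06, Hbegf in AT1-like over Krt8+-like cells (main -0.22) 0.22 and Erbb3 in Krt8+-like over AT2-like cells (main 0.73) -0.08. Depth limits Epgn, Ereg and Erbb4 most, and every immune or endothelial KO class, which held few cells.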
